A study of Mus musculus with 9 samples.

Results

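The genes encoding the CatSper channel and its partners in sperm ion transport were examined in testes of mice lacking RFX2. CatSper is the calcium channel of the sperm flagellum. It opens when the cell interior becomes alkaline and drives the hyperactivated beat that sperm need to fertilise, and males lacking any one of its pore subunits are infertile. The pore is formed by CATSPER1, CATSPER2, CATSPER3 and CATSPER4, and is held in a large complex with auxiliary subunits that include CATSPERB, CATSPERD and the CATSPERG proteins. SLC9C1, the sperm sodium/proton exchanger, and KCNU1 (SLO3), the potassium channel that sets the membrane potential of sperm, act beside it in the flagellar membrane. The genes were chosen by name: the 10 genes Catsper1, Catsper2, Catsper3, Catsper4, Catsperb, Catsperd, Catsperg1, Catsperg2, Slc9c1 and Kcnu1 were found in the table of read counts by their Ensembl gene IDs, out of 23074 genes.

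One RNA-seq library per mouse was made from decapsulated testis at postnatal days 29 to 30 (P30), for 5 wild type animals and 4 that were Rfx2-/-. All animals were on the same mixed background of C57BL/6, 129/Sv and FVB/N. RFX2 is a transcription factor of germ cells that binds the X-box, and the Rfx2-/- line lacks exon 7 of Rfx2, which had been removed with a Cre transgene driven in all tissues by the ACTB promoter. Loss of RFX2 was therefore not restricted to germ cells. Comparing the genotypes shows whether the levels of these mRNAs in whole testis differ without RFX2, at an age when spermatids are present. It does not show whether an mRNA requires RFX2 within a cell, because the mix of cells differs as well. The paper reports that at this age Rfx2-/- spermatids stop before elongation and fuse into multinucleated cells. Wild type testes already hold later spermatids.

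Library totals ranged from 13574764 to 15193330 counts, except that Rfx2-/- replicate 1 held 28800855. The mRNA of the targeted gene was lower in every Rfx2-/- library: Rfx2 was at 549 ± 54.5 CPM (SD, n = 5) in wild type and 146 ± 59.8 (n = 4) in Rfx2-/-, a log2 fold change of -1.91 (SE 0.28, adjusted p = 7.81e-04, edgeR quasi-likelihood test). CPM are counts scaled to library size with the TMM factors of edgeR. Markers of all testis cell types examined were detected, and none was at 0 in all libraries. The libraries of the 2 genotypes differed in spread: the biological coefficient of variation was 0.140 in wild type and 0.310 in Rfx2-/-, and 0.188 in Rfx2-/- without replicate 2. Fold changes of single genes and medians of gene lists that rest on this library are therefore given also without it.

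RFX proteins bind an inverted repeat, so the promoters of the genes were searched for the letters GTTNCC and GGNAAC separated by 2 bases, which is the same on both strands. Windows of 300 bases (250 before to 50 after the start site, RefSeq, GRCm38.p6) were matched by symbol for 7 of the 10 genes, in 9 windows. There was no entry for Catsper1, Catsperg2 or Kcnu1. The closest match in each window is shown because it sets the one complete X-box among these promoters beside the others. Capitals mark the letters that match, and each sequence is given 5′ to 3′ on the strand of its gene:
Catsperg1, first window: GTTaCCatGGaAAC
Catsperg1, second window: GTTtCCtaGagAtC
Catsper2: GcTgCCgaGGtccC
Catsperb: cTTtCCacaGaAAa
Catsper3: cTTcCCagGGtccC
Catsper4: GcTgCCtctGtgAt
Catsperd, first window: GccgCCgcaGaAcC
Catsperd, second window: aTggatctGGgAAC
Slc9c1: GTcctCaacccAAa

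The first Catsperg1 window matched 10 of 10 letters, 18 to 5 bases before the start site (chr7:29214038-29214051, minus strand). A complete match was found in 0.451% of 32851 mouse promoters of the same length. The second Catsperg1 window matched 8 letters, a degree reached by 13.9% of promoters, and the remaining windows matched 5 to 7. The single repeat unit GTTGCC, searched on both strands, was in none of the 9 windows and in 12.5% of all promoters. TGACG, a core of the site bound by CREM and CREB, was searched on both strands and was found once in the Catsper2 window and 3 times in the first Catsperd window, against 20.8% of promoters with at least 1. These are matches of letters in short windows and were not tested here as binding sites. The paper mapped RFX2 binding by ChIP-Seq in germ cells of younger wild type mice, and its peaks were not examined here. The whole Catsperg1 window (chr7:29213984-29214283, minus strand) is given for the context of the repeat, which stands in capitals:
Catsperg1: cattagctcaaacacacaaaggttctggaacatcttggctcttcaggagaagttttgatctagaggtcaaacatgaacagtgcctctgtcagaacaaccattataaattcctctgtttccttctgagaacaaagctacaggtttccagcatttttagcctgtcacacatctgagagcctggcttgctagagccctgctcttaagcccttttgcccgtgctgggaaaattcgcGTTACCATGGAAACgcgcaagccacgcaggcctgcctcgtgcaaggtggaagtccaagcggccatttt

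All 10 genes were expressed and passed the filter on low counts. Catsper4 was the one gene of the 10 that passed an adjusted p of 0.05 in the comparison of genotypes, and it was higher in Rfx2-/-. Calls required more than a 2-fold change with an adjusted p no higher than 0.01. By this rule 0 of the 10 genes were called lower, where 3.68% of the 15613 genes tested were, and 0 were called higher, where 0.826% were. At an adjusted p of 0.05 with no limit on the fold, 0 were lower and 1 was higher, beside 7.31% and 3.48% of all genes tested. At an unadjusted p under 0.05 there were 2 genes in edgeR, 3 in DESeq2 and 3 in limma voom. The shares of all genes tested under the same limit were 27.6%, 29.3% and 30.7%. The median log2 fold change of the 10 genes was 0.04 and that of all genes tested 0.03 (0.11 and 0.04 without Rfx2-/- replicate 2). With 10 genes, these counts are no result about the genes as a group.

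The size of change that these data allow was given by the 95% confidence intervals. For 9 of the 10 genes the interval stayed above a 2-fold decrease, the exception being Catsperg2, whose interval ran from -1.16 to 0.02 on the log2 scale. Catsper1 cleared this limit only narrowly, with an interval from -0.98 to 0.16. Its SE of 0.26 rose to between 0.28 and 0.30 when Rfx2-/- replicate 1, 3 or 4 was left out. Without Rfx2-/- replicate 2 its SE was 0.16 and its log2 fold change -0.18. For Catsperg2 they were then 0.14 and -0.32, so for both genes much of the uncertainty rested on this library. Intervals were not computed for fits with a library left out, so a 2-fold decrease of Catsper1 is not firmly set aside. For 9 genes the interval over all libraries stayed below a 2-fold increase, the exception being Catsper4, at 0.44 to 1.08. In bulk testis, fewer cells of a type and less RNA per cell cannot be told apart, and this holds for every difference given here.

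**Figure D1:**
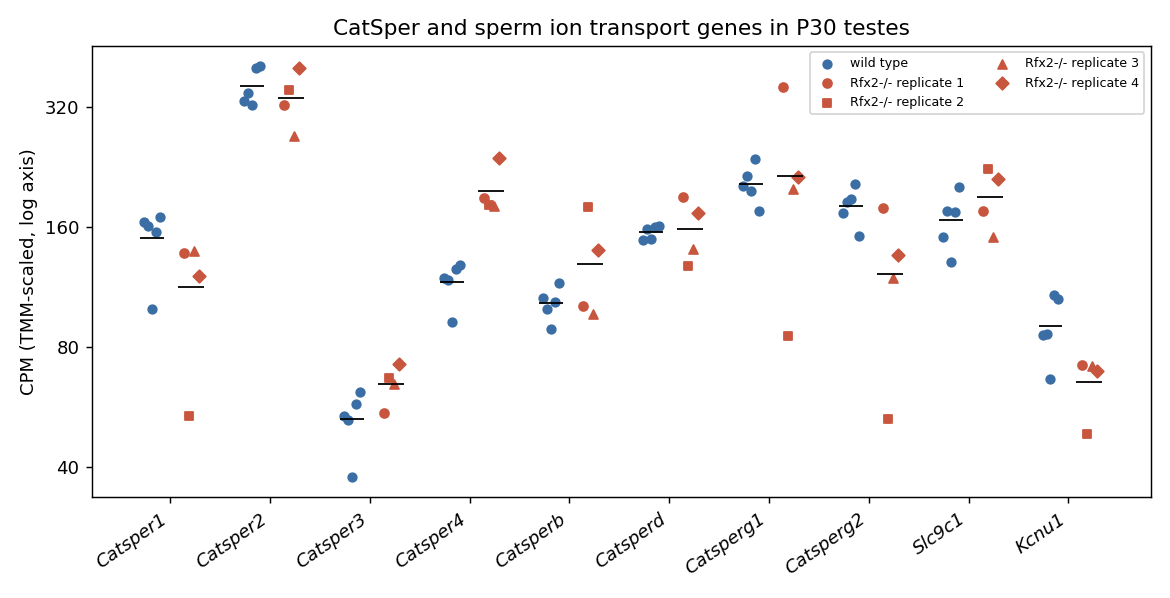
CPM (TMM-scaled, log axis) of the 10 genes in each library, with blue points for wild type, red symbols for the 4 Rfx2-/- replicates and bars for the group means. The genotypes are separated for Catsper4, and Rfx2-/- replicate 2 (squares) lies far below the others for Catsper1, Catsperg1 and Catsperg2.

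**Figure D2:**
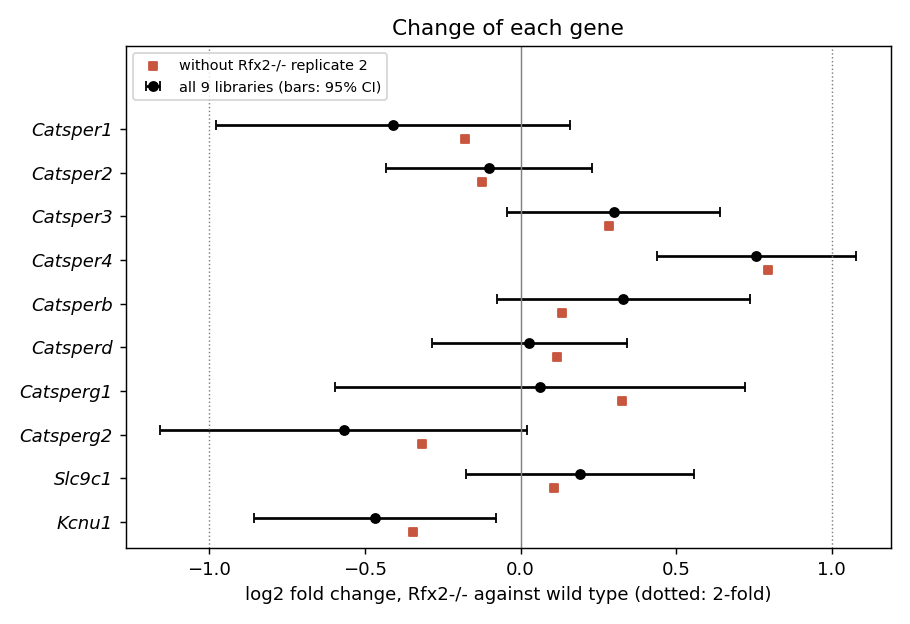
Log2 fold change of each gene, Rfx2-/- against wild type, with 95% confidence intervals from edgeR over all 9 libraries, and the value without Rfx2-/- replicate 2 as squares. The interval of Catsper4 lies above 0 and that of Kcnu1 below 0, before adjustment for the number of genes tested, and the dotted lines mark 2-fold.

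Among the pore subunits, Catsper4 rose. Catsper4 (GRCm38 chr4:134211970-134227383, minus strand, 12 merged exons) was at 119, 118, 92.5, 126 and 129 CPM in wild type replicates 1 to 5. In Rfx2-/- replicates 1 to 4 it was at 189, 182, 181 and 238 CPM. Every Rfx2-/- library was above every wild type library. Among the 10 genes the genotypes did not overlap for 1, this gene, and 0 lay wholly lower, where 6.16% of all genes tested lay wholly higher, 9.7% wholly lower and 15.9% either way. The means were 117 ± 14.3 CPM (n = 5) and 197 ± 27.5 CPM (n = 4), a log2 fold change of 0.76 (SE 0.15, adjusted p = 0.00515, edgeR). The change remained under 2-fold in all 15 alternative analyses with an adjusted p, with log2 fold changes between 0.69 and 0.89, and the adjusted p lay between 6.73e-06 and 0.0193. Without Rfx2-/- replicate 2 it was 0.80, so this library did not carry the difference. Of its sequence, 0.590% of 50-base windows occurred in other genes, and no exon of another gene overlapped it. The Catsper4 window (chr4:134227334-134227633, minus strand) is shown as the promoter of the gene that differed, with the closest match to the X-box, 6 of 10 letters, in capitals:
Catsper4: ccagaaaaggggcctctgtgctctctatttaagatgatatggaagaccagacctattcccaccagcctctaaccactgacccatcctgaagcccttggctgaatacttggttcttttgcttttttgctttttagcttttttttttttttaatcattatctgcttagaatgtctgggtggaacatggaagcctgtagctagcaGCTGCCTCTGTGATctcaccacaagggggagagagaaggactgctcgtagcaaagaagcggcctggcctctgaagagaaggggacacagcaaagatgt

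The other pore subunits did not pass the test. Catsper3 (chr13:55784568-55808998), whose product is needed together with CATSPER4 for the channel, was at 53.9, 52.6, 37.8, 57.5 and 61.7 CPM in wild type and 54.8, 66.9, 64.8 and 72.8 CPM in Rfx2-/-. The ranges overlapped, and the log2 fold change was 0.30 (SE 0.16, adjusted p = 0.235, edgeR). Catsper2 (chr2:121392631-121413792), the most abundant of the 10, was at 332, 348, 325, 401 and 405 CPM in wild type and 325, 354, 270.4 and 401 CPM in Rfx2-/-. The difference of -0.10 (SE 0.15, adjusted p = 0.691, edgeR) was within the spread, and 18 bases of its exons (0.801%) overlapped those of Pdia3 on the opposite strand.

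Catsper1 (chr19:5335741-5344280) encodes the pore subunit with a histidine-rich amino terminus. It was at 165, 161, 100.0, 156 and 170.1 CPM in wild type and 138, 53.8, 139.9 and 121 CPM in Rfx2-/-. One library of each genotype stood low, wild type replicate 3 and Rfx2-/- replicate 2, and the ranges overlapped. The log2 fold change of -0.41 (SE 0.26, adjusted p = 0.324, edgeR) became -0.18 without Rfx2-/- replicate 2, so most of the difference rested on this library.

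Because the pore subunits were measured in the same libraries, the counts of Catsper3 and Catsper4 could be compared as a ratio, which is free of the scaling between libraries. There were 0.453, 0.446, 0.409, 0.457 and 0.480 reads of Catsper3 per read of Catsper4 in wild type, and 0.290, 0.368, 0.359 and 0.306 in Rfx2-/-. The ranges did not overlap. The mean log2 ratio was 0.45 lower in Rfx2-/- (a difference of -0.45), with p = 0.00794 in a two-sided exact permutation test over libraries, the smallest that 5 against 4 libraries can give (0.0119 after adjustment over the 3 ratios examined). Leaving out each library in turn gave differences between -0.50 and -0.39. Catsper4 was thus higher in Rfx2-/- also relative to Catsper3. The ratio uses the same Catsper4 counts as the test of that gene, so it is no separate evidence of its rise.

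The auxiliary subunits as a group did not move in 1 direction: 3 of 4 lay above 0, 1 below, and none passed the test. Catsperb (chr12:101404653-101626009), a subunit with a large extracellular domain, was at 106, 100.0, 89.1, 104 and 116 CPM in wild type and 101, 179, 96.9 and 141 CPM in Rfx2-/-. Replicates 2 and 4 of Rfx2-/- were above all wild type libraries and replicates 1 and 3 were within their range. The log2 fold change was 0.33 (SE 0.19, adjusted p = 0.268, edgeR) and 0.13 without Rfx2-/- replicate 2.

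Catsperd (chr17:56628143-56664456), a subunit needed for stability of the complex, had the smallest log2 fold change of the 10 with all libraries and TMM scaling. It was at 148, 158, 149.5, 160.4 and 161 CPM in wild type and 191, 128, 141 and 174 CPM in Rfx2-/-. The wild type libraries lay close together, and the Rfx2-/- libraries fell on both sides of them. The log2 fold change was 0.03 (SE 0.14, adjusted p = 0.919, edgeR). Catsperd lies 111.44 kb from Rfx2 on the same chromosome, with 6 protein-coding genes between them.

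Catsperg1 and Catsperg2 are copies of the gene for CATSPERG, 483.183 kb apart on chromosome 7 and both on the minus strand. They are near-identical in part: 43.5% of the 50-base windows of Catsperg1 also occurred in Catsperg2, and 41.0% of those of Catsperg2 in Catsperg1. Reads from these parts can have more than 1 position, and the authors discarded such reads. The counts of both may therefore come mainly from the remaining sequence, to an extent not known here, and their levels are uncertain. Catsperg1 (chr7:29181321-29214035), with the complete X-box in its promoter window, was at 203, 215, 197, 238 and 175 CPM in wild type and 360.3, 85.5, 199.7 and 213 CPM in Rfx2-/-. Rfx2-/- replicate 1 was above and replicate 2 below all wild type libraries. The log2 fold change of 0.06 (SE 0.30, adjusted p = 0.913, edgeR) became -0.28 without replicate 1 and 0.33 without replicate 2, so its direction was not determined.

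Catsperg2 (chr7:29697219-29727032) was at 173, 185, 188, 205 and 152 CPM in wild type and 179, 53.0, 119.7 and 136 CPM in Rfx2-/-. Replicates 2 to 4 of Rfx2-/- were below all wild type libraries. The log2 fold change of -0.57 (SE 0.27, adjusted p = 0.195, edgeR) did not pass, and it was -0.32 without Rfx2-/- replicate 2.

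Although neither copy passed on its own, their ratio differed between genotypes. There were 1.17, 1.16, 1.05, 1.16 and 1.15 reads of Catsperg1 per read of Catsperg2 in wild type, and 2.02, 1.61, 1.67 and 1.57 in Rfx2-/-. The ranges did not overlap, and the 4 Rfx2-/- libraries lay together although their levels of either gene spanned more than 3-fold. The geometric mean ratio was 1.14 in wild type and 1.71 in Rfx2-/-, a log2 difference of 0.59 with p = 0.00794 in the two-sided exact permutation test, again the smallest possible (0.0119 adjusted over 3 ratios). The difference was between 0.51 and 0.63 when each library was left out in turn. The ratio compares the reads that were kept for each gene and does not say which of the copies differed.

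**Figure D3:**
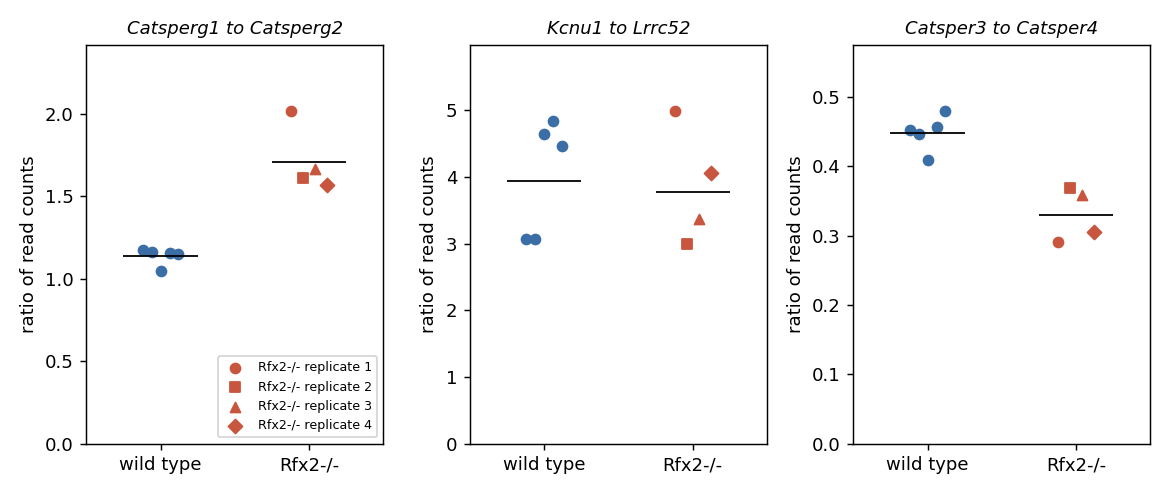
Ratios of read counts between pairs of genes in each library, with bars for the geometric means of 5 wild type and 4 Rfx2-/- libraries, on axes starting at 0. The genotypes do not overlap for Catsperg1 to Catsperg2 (1.05 to 1.17 against 1.57 to 2.02) or Catsper3 to Catsper4 (0.409 to 0.480 against 0.290 to 0.368), and they overlap for Kcnu1 to Lrrc52.

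Of the exchanger and the potassium channel, neither passed the test. Slc9c1 (chr16:45535309-45607001) was at 152, 176, 131, 174 and 202 CPM in wild type and 176, 224, 151 and 211 CPM in Rfx2-/-. The ranges overlapped widely, and the log2 fold change was 0.19 (SE 0.17, adjusted p = 0.478, edgeR). Kcnu1 (chr8:25849623-25937939) was at 86.0, 86.3, 66.6, 108 and 106 CPM in wild type and 72.2, 48.4, 71.8 and 69.6 CPM in Rfx2-/-. Wild type replicate 3 was the one wild type library within the range of Rfx2-/-. The log2 fold change of -0.47 (SE 0.18) had an unadjusted p of 0.0226 and did not pass after adjustment (adjusted p = 0.116, edgeR), and it was -0.35 without Rfx2-/- replicate 2.

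LRRC52, the auxiliary subunit that shifts the gating of KCNU1 to the voltages of sperm, was measured beside it. Lrrc52 was at 28, 28, 14.3, 22.4 and 23.7 CPM in wild type and 14.5, 16.2, 21.3 and 17.1 CPM in Rfx2-/-, with overlapping ranges and a log2 fold change of -0.43 (SE 0.20, adjusted p = 0.192, edgeR). The ratio of Kcnu1 to Lrrc52 counts had a geometric mean of 3.94 in wild type and 3.77 in Rfx2-/-, a log2 difference of -0.06 (p = 0.754, exact permutation test). A difference in this ratio was not detectable with these libraries.

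Levels of different genes were compared as CPM per kilobase of merged exons. In wild type the order was Catsper2 at 161, Catsper1 at 68.7, Catsperd at 60.5, Catsper4 at 57.3, Catsperg2 at 45.7, Slc9c1 at 43.5, Catsperg1 at 40.5, Catsper3 at 38.7, Catsperb at 27.7 and Kcnu1 at 24.7 CPM per kb (means of 5 libraries). The SD was 2.36 to 17.0 CPM per kb. Catsper2 was the one gene whose libraries did not overlap those of the next in the order. The remaining genes formed a continuous series. In Rfx2-/- Catsper2 was again first at 150.2 CPM per kb, followed by Catsper4 at 96.9, and each of them was separate from the next gene. Kcnu1 was last in both genotypes, at 17.9 CPM per kb in Rfx2-/-. The places of Catsper4 and of both Catsperg copies depended on the length used. Per kb of the longest transcript, Catsper4 was at 67.7 CPM in wild type, above Catsperd at 60.8, and at 114 CPM in Rfx2-/-. For the Catsperg copies, over the sequence not shared with other genes (a length chosen after the values were seen) wild type levels were 68.5 CPM per kb for Catsperg1 and 78.4 for Catsperg2, and those of Rfx2-/- were 71.5 and 52.9. On that length Catsper4 in wild type, at 57.7 CPM per kb, was below both copies, and in Rfx2-/- its libraries (89.2 to 118 CPM per kb) overlapped those of Catsperg1 (28.5 to 120.0 CPM per kb).

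The genes whose levels over the 9 libraries were most like those of Catsper4 were Scp2 (Pearson r = 0.985), Ush1c (0.982) and Ribc2 (0.974) on the scale of log2 CPM. Scp2 encodes a sterol carrier protein, Ush1c the scaffold protein harmonin and Ribc2 a protein of the axonemal microtubules. These values describe 9 libraries from 2 genotypes, and all 3 genes also had a higher mean in Rfx2-/-, and no test was made of them.

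The spread among Rfx2-/- libraries had a pattern of its own within the complex. In Rfx2-/- replicate 2, log2 CPM was lower than the mean of the other 3 Rfx2-/- libraries by a large amount for Catsper1 (a difference of -1.30), Catsperg1 (-1.54) and Catsperg2 (-1.43). Kcnu1 (-0.56) and Catsperd (-0.39) were lower to a smaller extent. Catsperb (0.69), Slc9c1 (0.33), Catsper2 (0.11) and Catsper3 (0.07) were higher, and Catsper4 was close to the others (-0.14). Subunits of 1 channel thus departed in opposite directions in the same testis, and the library was not uniformly poor in CatSper mRNA. In this library the 6 markers of meiotic prophase had a median log2 CPM 1.4 above the wild type mean, against 0.14 to 0.41 in the other Rfx2-/- libraries. The 6 round spermatid markers were 0.49 above, and -0.14 to 0.34 in the others. The 5 Leydig cell markers were 0.73 above, and -0.36 to 0.20 in the others. The part of this in the values of single genes was not tested. In a voom fit that weights libraries by their quality, this library received a weight of 0.101, with 0.713 to 1.15 for the other Rfx2-/- libraries.

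**Figure D4:**
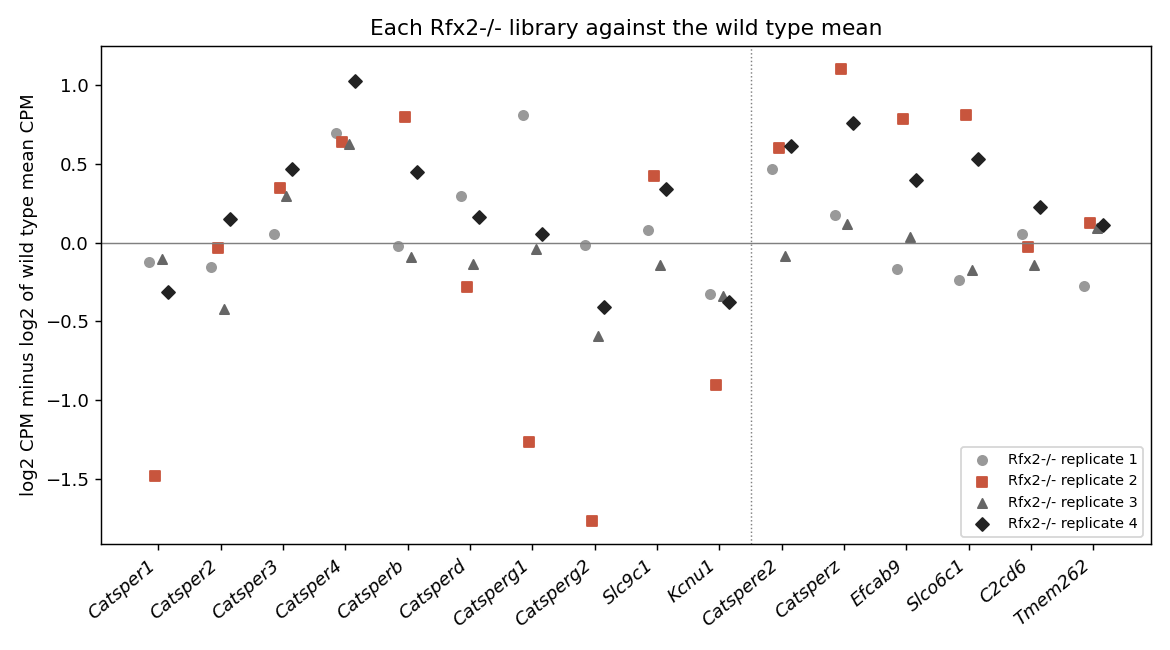
Log2 CPM of each Rfx2-/- library minus the log2 of the wild type mean CPM, for the 10 genes (left of the dotted line) and the 6 measured further genes of the CatSper complex. Replicate 2 (squares) is the lowest for Catsper1, Catsperg1, Catsperg2, Catsperd and Kcnu1 and the highest for Catsperb, Slc9c1, Catsperz, Efcab9 and Slco6c1, and all 4 libraries of Catsper4 lie above 0.

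The wider pathway was examined in 3 lists with 28 genes in all, of which 26 were in the table analysed here and 24 passed the filter on low counts. Slc26a3 and Slc9b2 did not pass, with at most 0.401 and 0.613 CPM. Of the 8 genes listed as other CatSper complex genes, 6 were in the table, and Catspere1 was among those not analysed here. Of the 24, 2 were called lower (8.33%, beside 3.68% of all genes) and 0 were called higher. At an adjusted p of 0.05, 3 were lower and 1 was higher (12.5% and 4.17%, beside 7.31% and 3.48%), and 9 had an unadjusted p under 0.05 in edgeR (37.5%, beside 27.6% of all genes). The median log2 fold change over the 24 was -0.00037, and -0.0031 without Rfx2-/- replicate 2, when 4 passed an adjusted p of 0.05 as lower and 4 as higher (16.7% each, beside 9.77% and 4.93% of all genes in that fit).

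None of the other CatSper complex genes passed the test, and with all libraries all lay above 0. The 6 genes measured are all named. Their median log2 fold change was 0.30, beside 0.03 for all genes, and 0.095 without Rfx2-/- replicate 2, when Tmem262 lay below 0. Tmem262 also turned negative in voom, and Tmem262 and C2cd6 did when a trend with gene length was removed. Catsperz, needed for the ordered arrangement of the complex along the flagellum, was at 249, 242, 221, 256 and 317 CPM in wild type and 290.5, 553, 278 and 435 CPM in Rfx2-/- (log2 fold change 0.60, SE 0.21, adjusted p = 0.0918, edgeR). Of the Rfx2-/- libraries, 2 lay within the wild type range and 2 above it, and 35.7% of its 50-base windows were shared with Kcnk4. Catsperz passed an adjusted p of 0.05 in 4 of 15 alternatives, among them those without Rfx2-/- replicate 1 (0.0332) or 3 (0.0442), in edgeR. Efcab9, the calcium sensor that binds CATSPERZ, had a log2 fold change of 0.31 (adjusted p = 0.343, edgeR). Catspere2 was at 0.42, Slco6c1 at 0.30, C2cd6 at 0.03 and Tmem262 at 0.02, with adjusted p from 0.213 to 0.956 (edgeR). Without Rfx2-/- replicate 2, Catsperz was at 0.38, Efcab9 at 0.11 and Slco6c1 at 0.08, so a part of each value rested on this library.

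Among the other sperm ion transport genes, Atp1a4 and Slc9a8 fell. Of the 10 tested, 7 lay below 0 and the median log2 fold change was -0.33, a value set by 1 library: log2 CPM against the wild type mean had a median of -1.16 in Rfx2-/- replicate 2 and of 0.057, -0.13 and -0.12 in the other Rfx2-/- libraries. Leaving it out gave a median of -0.044, with 6 genes below 0, and an adjusted p of 0.05 was then passed by 3 as lower (Atp1a4, Slc26a8, Slc9a8) and 3 as higher (Cftr, Hvcn1, Slc26a6), in edgeR. Atp1a4, the sodium pump subunit specific to male germ cells, was at 751, 878, 530.3, 839 and 1022 CPM in wild type and 344, 214, 402 and 278 CPM in Rfx2-/-. The genotypes did not overlap, and the log2 fold change was -1.38 (SE 0.23, adjusted p = 0.00176, edgeR). Without Rfx2-/- replicate 4 it was -1.30 with an adjusted p of 0.0113 (edgeR), just above the limit of 0.01. Slc9a8, a sodium/proton exchanger needed for acrosome formation, was at 76.8 to 88.2 CPM in wild type and 23.3 to 63.0 CPM in Rfx2-/- (log2 fold change -0.79, SE 0.23, adjusted p = 0.0492, edgeR). It lay just inside the limit and was at -0.56 without Rfx2-/- replicate 2. It did not pass with total-count scaling (adjusted p = 0.0685, edgeR), without the filter on low counts (0.0544), or when any wild type library or replicate 3 or 4 of Rfx2-/- was left out (up to 0.108), and it passed in 6 of 15 alternatives.

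The anion transporter gene Slc26a8 and the proton channel gene Hvcn1 did not pass. Slc26a8 was at 226 to 256 CPM in wild type and at 214, 58.4, 162 and 182 CPM in Rfx2-/-, with a log2 fold change of -0.64 (SE 0.29, adjusted p = 0.169, edgeR). Without Rfx2-/- replicate 2 it was -0.37 with an adjusted p of 0.0448 (edgeR). Hvcn1 was at 20.2 to 24.2 CPM in wild type and 20.5 to 35.7 CPM in Rfx2-/-, with a log2 fold change of 0.42 (SE 0.17, adjusted p = 0.140, edgeR). Without Rfx2-/- replicate 2 it was 0.56 with an adjusted p of 0.00855 (edgeR). Of the exon bases of Hvcn1, 44.2% overlapped Tctn1 on the opposite strand, and the use of strand in counting is not given in the sources used here, so its value is uncertain.

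Of the 8 genes of sperm cAMP and calcium signalling, Prkar2a fell and Camk4 rose, and the median log2 fold change was -0.13 (-0.079 without Rfx2-/- replicate 2). Prkar2a, a regulatory subunit of protein kinase A, was at 182, 186, 102, 177 and 217 CPM in wild type and 75.5, 108, 78.1 and 63.1 CPM in Rfx2-/-. Wild type replicate 3 was below the highest Rfx2-/- library, and the log2 fold change was -1.09 (SE 0.22, adjusted p = 0.00762, edgeR). The call was lost when any single library other than wild type replicate 3 or Rfx2-/- replicate 2 was left out, with an adjusted p of at most 0.0363 (edgeR). Camk4, a calmodulin-dependent kinase, was at 50.6, 56.7, 42.4, 55.4 and 61.6 CPM in wild type and 84.8, 116, 88.0 and 91.3 CPM in Rfx2-/-. Its genotypes did not overlap, with a log2 fold change of 0.83 (SE 0.15, adjusted p = 0.00301, edgeR). Adcy10, the bicarbonate-sensitive adenylyl cyclase of sperm, was at 366 to 564 CPM in wild type and at 409.6, 158, 432 and 434 CPM in Rfx2-/-. Its log2 fold change of -0.44 (SE 0.27, adjusted p = 0.304, edgeR) was -0.19 without Rfx2-/- replicate 2.

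Some markers of germ cell stages differed between genotypes beside these genes. All 10 markers of elongating spermatids lay below 0, with a median log2 fold change of -0.66, and 4 passed an adjusted p of 0.05 as lower (edgeR), beside 7.31% of all genes. The median was -0.83 and 7 passed without Rfx2-/- replicate 2, beside 9.77% of all genes in that fit. Their summed level was 7544 to 16463 CPM in wild type and 6051 to 10239 CPM in Rfx2-/-. Without Rfx2-/- replicate 2 the sum was 6051 to 7011 CPM in Rfx2-/-, below every wild type library. All 6 markers of meiotic prophase lay above 0, with a median of 0.65, of which 1 passed as higher, beside 3.48% of all genes. Their sum was 786 to 1066 CPM in wild type and 1124 to 2368 CPM in Rfx2-/-. The median was 0.26 and the highest sum 1303 CPM without Rfx2-/- replicate 2, so most of this difference rested on that library. None of the round spermatid or late spermatocyte markers passed with all libraries, and Tssk2 and Pgk2 passed as lower without Rfx2-/- replicate 2. The median was 0.16 for the 6 round spermatid markers (644 to 1042 against 728 to 1225 CPM) and -0.02 for the 6 late spermatocyte markers (5938 to 7505 against 5723 to 8086 CPM). For those of Sertoli, Leydig, peritubular and macrophage cells and of spermatogonia the medians were between -0.06 and 0.20, and between -0.13 and 0.17 without Rfx2-/- replicate 2. The part of these shifts in the change of Catsper4 or in the values of the other genes was not tested.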

How the data were processed

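Testes of 5 wild type and 4 Rfx2-/- mice were grouped by the genotype in the labels, and columns were matched to mice by the sample titles. Replicates are separate mice, numbered in order of deposition. The authors deposited raw read counts per gene. Their methods describe TruSeq libraries, single reads, removal of reads with more than 1 position, and counting over merged exons of protein-coding isoforms, leaving out reads on exons of different genes. The submitters' processing notes name CASAVA 1.8.2, STAR 2.4 and featureCounts 1.4.6. Another read length and aligner stand elsewhere in the methods, so near-identical copies lose reads to an extent not known here, and the use of strand is not given in the sources used here.

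Genotypes were compared in edgeR 4.0.16 under R 4.3.3 by its quasi-likelihood test (robust, TMM, filterByExpr), with Benjamini-Hochberg adjustment over 15613 genes. The fold and p limits are those of the study, which used DESeq; here they were applied to the adjusted p. Values are mean ± SD. In the least deep library 3 counts equal 0.229 CPM, and such limits cover counting error only. Libraries of 1 genotype differed by a chi-square of at least 4.52 per gene, so none was a repeat. Ratios between genes were compared after adding 0.5 to each count, by exact permutation over libraries. Names, exons and shared 50-base windows were taken from GENCODE M21 (GRCm38), which held 96.6% of gene IDs, and promoters from RefSeq. The procedure was tested on simulated data, with changes larger than that of Catsper4 and the same spread in both genotypes. That test therefore does not cover small changes or the unequal spread seen here. DESeq2 1.42.0, limma 3.58.1 voom, other scalings, no filter, unadjusted p, a length trend, and leaving out each library were tried as alternatives. The values of gene lists without Rfx2-/- replicate 2 were added after seeing the data.

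The genes and gene lists were chosen with earlier results of these data known. The genes named were the 10, Rfx2, genes of the pathway lists at an adjusted p at or under 0.05, Catsperz, Efcab9, Catspere1, Lrrc52, Hvcn1, Atp1a4, Slc26a8 and Adcy10 in any case, and the 3 genes most correlated with the member of largest change. The remaining CatSper complex genes were named after their values were seen.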

Additional observations from a re-analysis of the deposited data

Results flagged for a closer look

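In 56 groups of 4 or 5 libraries, 1 library stood apart from the others by Dixon's criterion in 7 cases, and chance gives about 2.8. Catsper1 was at 100.0 CPM in wild type replicate 3 and at 156 to 170.1 in the other wild type libraries. The same library was low for Efcab9, at 62.1 CPM against 90.8 to 97.6, and had the lowest ratio of Catsperg1 to Catsperg2 counts among wild type libraries, 1.05 against 1.15 to 1.17. Catsper4 was at 238 CPM in Rfx2-/- replicate 4 and at 181 to 189 in the other Rfx2-/- libraries, which were themselves above every wild type library. In Rfx2-/- replicate 2, Kcnu1 was at 48.4 CPM against 69.6 to 72.2 in the other Rfx2-/- libraries, and Adcy10 at 158 against 409.6 to 434. Tmem262 was at 9.46 CPM in Rfx2-/- replicate 1 against 12.3 to 12.5. The large departures of Catsper1, Catsperg1 and Catsperg2 in Rfx2-/- replicate 2 did not meet the criterion. The other Rfx2-/- libraries were at 121 to 139.9 CPM for Catsper1, 199.7 to 360.3 for Catsperg1 and 119.7 to 179 for Catsperg2.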

How the results depend on the processing

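No gene of the 10 was called lower or higher in the 15 alternatives with an adjusted p or with an unadjusted p. Catsper4 passed an adjusted p of 0.05 in all 15. With unadjusted p, 1 of the 10 was lower at 0.05 (Kcnu1). Total-count scaling moved the median log2 fold change of all genes from 0.03 to 0.16, and Catsper4 was then at 0.89. Values near 0 changed sign. Catsper2 was at 0.032 with total counts and ran from -0.16 to 0.026 with single libraries left out (0.026 without Rfx2-/- replicate 3), Catsperd from -0.043 (without Rfx2-/- replicate 1) to 0.12, and Catsperg1 from -0.28 (without Rfx2-/- replicate 1) to 0.33. Tmem262 was at -0.045 in voom and -0.12 with the length trend removed, and ran from -0.075 to 0.15. C2cd6 was at -0.030 with the length trend removed and ran from -0.0055 to 0.12. The log2 ratio of Kcnu1 to Lrrc52 ran from -0.19 to 0.051, and was above 0 without wild type replicate 4 or Rfx2-/- replicate 2.

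Of the pathway genes, 1 was called lower with total counts and 1 with the length trend removed (0 to 2 with single libraries left out), Prkar2a being lost in both and in most of the latter. At an adjusted p of 0.05, 3 were higher with total counts, 3 in DESeq2, 4 in voom and 3 with the length trend removed (1 to 4 with single libraries left out). With unadjusted p, 5 were lower and 4 higher. The causes of these changes were not tested. No paired analysis was possible because the labels name no litters or pairs. The paper states a preference for littermates of the same age, so some of the mice may share a litter. With 4 Rfx2-/- libraries of unequal spread, a 2-fold decrease could not be set aside for Catsperg2, nor a 2-fold increase for Catsper4. For Catsper1 the interval ended just short of a 2-fold decrease, at -0.98 on the log2 scale.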
